A study of Mus musculus with 9 samples.

Results

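S100 genes encode small calcium-binding proteins with a pair of EF-hand motifs. Most S100 proteins work as dimers inside the cell, where calcium makes them bind partners such as annexins, and some are released and act on receptors of other cells. In the brain, S100b is widely used as a marker of astrocytes, and S100a8 and S100a9, which together form calprotectin, are abundant in neutrophils. Here 10 members were followed by their gene symbols, of the 33274 symbols listed in at least 1 of the files: S100a1, S100a4, S100a6, S100a8, S100a9, S100a10, S100a11, S100a13, S100a16 and S100b. All but S100a9 were listed in all 9 files. S100a9 is not listed in T233 and was treated as missing there, not as 0.

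The cells are mouse cells of the tumor microenvironment (TME) of patient-derived orthotopic xenografts (PDOXs) of glioblastoma (GBM), in which organoids of human tumors grow after implantation into the brains (right frontal cortex) of female nude mice, which lack a thymus and so most T cells. Drop-seq, a droplet method that pairs each cell with a barcoded bead, gave the number of unique molecular identifiers (UMIs) per gene and cell. There were 7 untreated PDOXs (P3, P8, P13, T16, T101, T192 and T233), the brain of 1 nude mouse that bore no tumor (Nu-NB) and a P3 tumor whose host received temozolomide (P3TMZ). One patient gave both T192 and T233. FACS was used to sort cells for Nu-NB and P8, whereas MACS removed the human cells of the other samples. Each sample is 1 library, and the untreated PDOXs, which are different tumor models, were taken as the replicates. Samples of T347, T470, GL261 and BL6/N are not analysed here.

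In all, 14622 cells were kept, 722 to 2770 per sample, with medians of 521 to 1303 UMIs per cell before doublet removal. No pair of samples shared more than 11 cell barcodes. Cells were clustered without the S100 genes, and clusters were named from marker genes that hold no S100 gene, as myeloid-like (4475 cells), astrocyte-like (2925), endothelial-like (2278), oligodendrocyte progenitor cell (OPC)-like (830), mural-like, which here means pericyte-like (488), neuronal-like (239) and fibroblast-like (131). A further 1391 cells of clusters with markers of more than 1 class and 1865 cells of unnamed clusters were kept apart. The 5 of 11 OPC markers listed in every file summed to between 4509 and 7652 CPM in OPC-like cells, where the 11 astrocyte markers summed to between 1913 and 2851 CPM.

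The level of a gene is given as UMIs per 1000000 UMIs (CPM) of all cells of one class in one sample, for sums of at least 10 cells. This left 7 PDOXs for myeloid-like and endothelial-like cells and 6 for the other classes (P3 had 4 astrocyte-like and 0 OPC-like cells, and T233 had 7 mural-like cells). A summed level cannot tell more cells with the transcript from more transcript per cell. The share of cells with at least 1 UMI is therefore given beside it, after thinning cells to 500 UMIs at random. Cells with fewer UMIs were left out. In the untreated PDOXs these were 614 astrocyte-like, 772 endothelial-like, 242 OPC-like, 150 mural-like and 1258 myeloid-like cells. The shares thus describe the deeper cells of each class. Intervals of shares are exact binomial 95% intervals pooled over the untreated PDOXs and cover counting error only. Levels are compared between classes or samples, not between genes.

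The S100 genes differed in level between the 5 largest named classes. Among these classes, S100a1, S100a16 and S100b were highest in OPC-like and astrocyte-like cells, S100a11 was highest in mural-like cells and next in endothelial-like cells, S100a6 was high in astrocyte-like and mural-like cells, and S100a13 was at similar levels in OPC-like, astrocyte-like and endothelial-like cells. S100a8 and S100a9 were almost confined to a few cells. At 500 UMIs per cell, OPC-like cells held a mean of 1.21 of the 10 members, mural-like cells 0.862 (0.544 without P13), astrocyte-like cells 0.807, endothelial-like cells 0.462 and myeloid-like cells 0.174, and 86.0% of the myeloid-like cells held none.

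**Figure D1:**
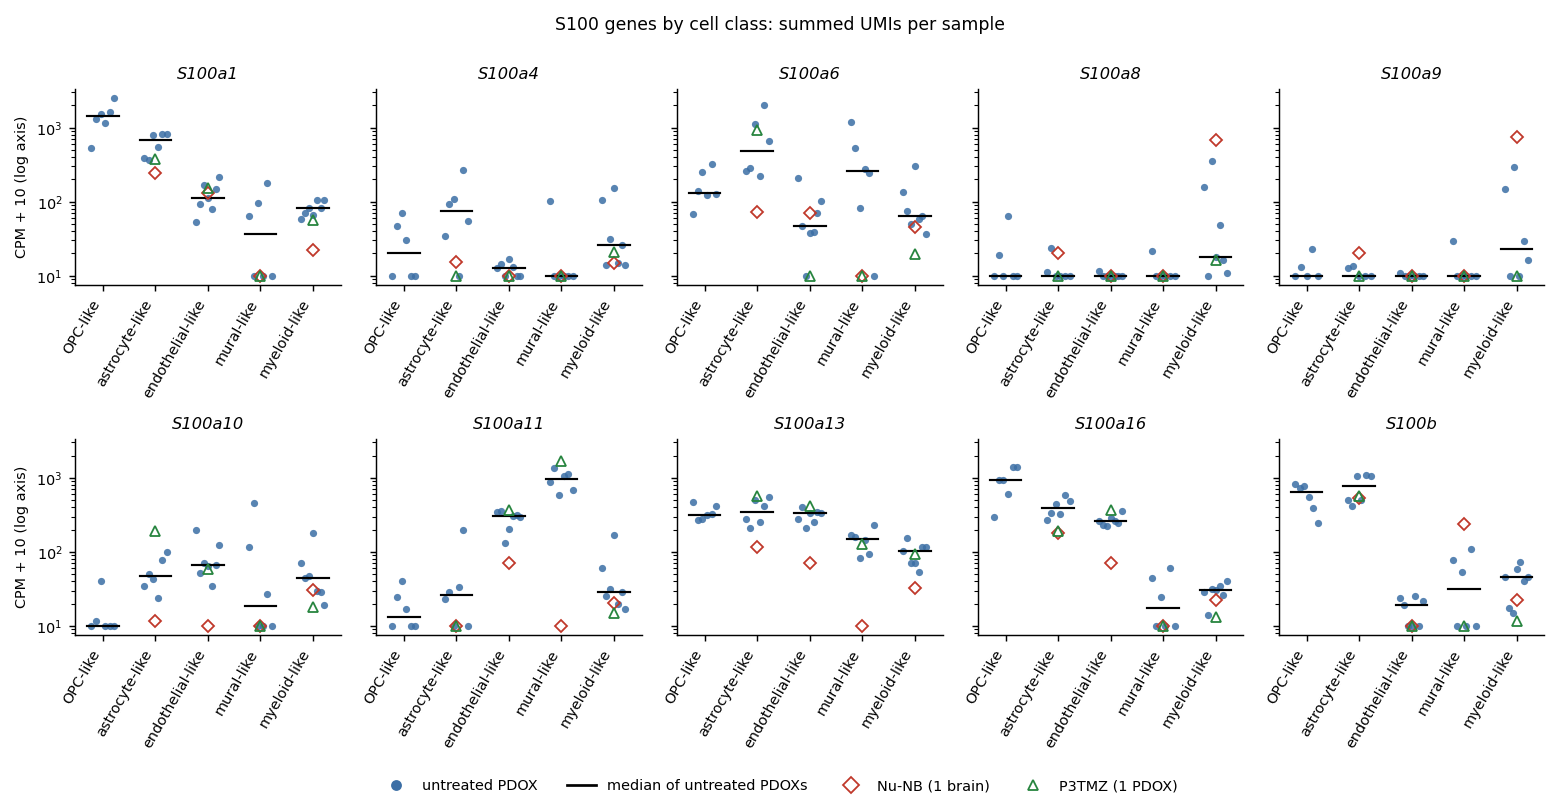
Level of each S100 gene as CPM + 10 on a log axis in 5 cell classes. Each filled point is 1 untreated PDOX with at least 10 cells of the class, the bar is the median of the PDOXs, the open diamond is Nu-NB and the open triangle is P3TMZ. S100a1 and S100a16 are highest in OPC-like cells, S100a11 peaks in mural-like cells, and S100a8 and S100a9 lie near the floor outside myeloid-like cells, with S100a8 in OPC-like cells of T16 (53.3 CPM, from 1 cell) as the highest exception.

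S100a1, a member best known from heart and skeletal muscle, had its highest levels in OPC-like cells. They were 517 CPM in P13, a median of 1413 CPM and 2493 CPM in T233 over 6 PDOXs. Astrocyte-like cells ranged from 361 CPM in P8 to 812 CPM in T233 with a median of 664 CPM, so that the classes overlapped. Endothelial-like cells had 43.5 to 204 CPM, myeloid-like cells 49.0 to 96.9 CPM and mural-like cells 0 to 167 CPM, and all of these PDOX values lay below all values of OPC-like and astrocyte-like cells. At 500 UMIs, 41.5% (37.5 to 45.6) of 585 OPC-like cells held S100a1, and 58.6% of the OPC-like cells without thinning. The share was 18.0% (16.1 to 20.1) in astrocyte-like cells and 2.72% (2.08 to 3.49) in myeloid-like cells. By edgeR's quasi-likelihood test with the sample as a block and Benjamini-Hochberg adjustment over 6114 genes, called at an adjusted p of at most 0.01 and a log2 difference of at least 1, the difference of endothelial-like minus OPC-like cells was -3.34 ± 0.29 (SE, adjusted p = 1.8e-13). Astrocyte-like and OPC-like cells did not differ past the threshold (-0.48 ± 0.27, adjusted p = 0.18), nor did myeloid-like, endothelial-like and mural-like cells among each other.

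S100a16, which differs from most members in binding calcium through only 1 of its EF-hands, had a similar order of classes. OPC-like cells had 287 CPM in P13, a median of 924 CPM and 1391 CPM in T233, and astrocyte-like cells 262 CPM in P13, a median of 380 CPM and 569 CPM in T192. Endothelial-like cells were the third class, at 210 CPM in P8, a median of 250.5 CPM and 341 CPM in T233. Myeloid-like cells reached 29.9 CPM and mural-like cells 50.2 CPM, below every PDOX value of the other 3 classes. The difference of myeloid-like minus OPC-like cells was -4.81 ± 0.28 (SE, edgeR, adjusted p = 2.4e-17), and that of endothelial-like minus mural-like cells was 2.95 ± 0.38 (adjusted p = 2.6e-08). Endothelial-like minus astrocyte-like cells gave -0.88 ± 0.24 (adjusted p = 0.0021), short of the required size. This difference was called by DESeq2 and with RLE size factors (-1.08 by each) and by edgeR without P13 (-1.06). Of the OPC-like cells at 500 UMIs, 32.8% (29.0 to 36.8) held S100a16, against 1.13% (0.735 to 1.67) of myeloid-like cells.

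S100b was higher in astrocyte-like and OPC-like cells than in myeloid-like, endothelial-like and mural-like cells in every PDOX sum. The 3 PDOX sums of fibroblast-like cells, at 125 to 348 CPM, overlapped the OPC-like range, as did an unnamed cluster led by Hist1h4c, Tubb3 and Gap43, at 37.8 CPM in P13 to 1033 CPM in T16. Astrocyte-like cells fell into PDOXs near 400 to 500 CPM, namely P8 at 411 CPM, P13 at 489 CPM and T16 at 490 CPM, and PDOXs above 1000 CPM, namely T233 and T101, at 1061 and 1063 CPM, and T192 at 1076 CPM. OPC-like cells ranged from 232 CPM in T233 to 804 CPM in P13 with a median of 629 CPM, and the order of PDOXs was not that of the astrocyte-like cells. Endothelial-like cells reached 15.2 CPM only, and the difference of endothelial-like minus astrocyte-like cells was the largest of a member between classes, at -6.42 ± 0.45 (SE, edgeR, adjusted p = 1.7e-16), or 85.4-fold lower. At equal depth the share of cells with S100b was 26.3% (22.8 to 30.1) in OPC-like cells, 20.1% (18.0 to 22.2) in astrocyte-like cells and 0.521% (0.210 to 1.07) in endothelial-like cells. Astrocyte-like minus OPC-like cells gave 0.80 ± 0.34 (adjusted p = 0.075) for the level, and without P8 the difference was called (1.23, edgeR, adjusted p = 0.0044).

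S100a13, which takes part in the release of growth factors that lack a signal peptide, had class medians between 94.0 and 335 CPM. OPC-like cells had 259 to 459 CPM, astrocyte-like cells 199 to 542 CPM and endothelial-like cells 201 to 396 CPM, which overlap throughout. Mural-like cells had 71.9 to 222 CPM and myeloid-like cells 43.6 to 145 CPM. Endothelial-like and OPC-like cells did not differ past the threshold (-0.05 ± 0.23, adjusted p = 0.91), whereas myeloid-like minus astrocyte-like cells gave -2.06 ± 0.22 (SE, edgeR, adjusted p = 3.2e-11). At equal depth, 13.8% (12.05 to 15.8) of endothelial-like cells, 11.6% (9.14 to 14.5) of OPC-like cells and 3.63% (2.89 to 4.50) of myeloid-like cells held the transcript.

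S100a1 and S100a13 are neighbors on chromosome 3 and point away from each other. In GRCm38 (GENCODE vM21), S100a1 lies at chr3:90511034-90514392 on the minus strand and S100a13 at chr3:90514435-90524581 on the plus strand, with 42 bases between them and no shared exon base. Despite the short distance, S100a1 changed over the classes far more than S100a13. The RefSeq window from 250 bases before to 50 after the start of S100a13, chr3:90514185-90514484 in GRCm38.p6 on the plus strand, is shown because it covers the start of both genes, with the 42 bases between the genes in capitals.
S100a13: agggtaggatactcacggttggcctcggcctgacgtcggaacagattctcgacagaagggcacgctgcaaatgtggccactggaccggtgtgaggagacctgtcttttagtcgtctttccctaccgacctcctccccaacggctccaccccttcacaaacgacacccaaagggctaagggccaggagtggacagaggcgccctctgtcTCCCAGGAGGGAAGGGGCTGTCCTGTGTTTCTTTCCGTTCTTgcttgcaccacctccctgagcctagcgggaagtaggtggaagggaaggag
The window of S100a1 shares 204 of its 300 bases. Motifs of 5 kinds were searched on both strands of the windows, and neither of these windows held any of them. The TATA box, searched as TATAAA, occurs in 13.6% of 32851 RefSeq promoter windows of the same length. The motif of the AP-1 factors, searched as TGANTCA, occurs in 7.81% of the windows. The core motif of PU.1, a factor of myeloid cells, was searched as GAGGAA and occurs in 28.3%. The motif of the CCAAT-enhancer binding proteins, searched as TTGCNNAA, occurs in 10.8%, and the GC box, searched as GGGCGG, in 35.7%. The table of windows held 9 of the 10 members, all but S100a10.

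S100a11, a partner of annexins, had its highest levels of the 5 classes in mural-like cells. Mural-like cells had 576 CPM in P8, a median of 958 CPM and 1347 CPM in P3. Endothelial-like cells had 122 CPM in P8, a median of 299 CPM and 345 CPM in P3, so that every mural-like value lay above every endothelial-like one. OPC-like cells reached 30.1 CPM. Astrocyte-like cells had 0 to 23.1 CPM apart from T192 at 190 CPM, and myeloid-like cells 6.97 to 50.4 CPM apart from T101 at 156 CPM. The monocyte-derived-like part of the myeloid-like cells had 127 CPM in P8, from 2 UMIs, 327 CPM in P13, 346 CPM in T192 and 409 CPM in T101, a range that overlaps that of endothelial-like cells. Mural-like minus OPC-like cells differed by 5.59 ± 0.68 (SE, edgeR, adjusted p = 8.6e-09), or 48.0-fold. Endothelial-like minus mural-like cells gave -1.45 ± 0.40 (adjusted p = 0.0046), and this call was lost without P3, T16 or P13 (adjusted p = 0.012 to 0.032), by DESeq2, at a clustering resolution of 2 and without the block. At equal depth, 38.1% (32.7 to 43.8) of mural-like cells, 11.8% (10.2 to 13.7) of endothelial-like cells and 0.855% (0.278 to 1.98) of OPC-like cells held it, and 15.7% (10.5 to 22.1) of the monocyte-derived-like cells. Without thinning, 53.0% of mural-like cells did. The 12 endothelial markers summed to between 683 and 1065 CPM in mural-like cells, against 12730 to 22820 CPM in endothelial-like cells. In the 4 files that list the pseudogene S100a11-ps, it held 8 UMIs against 2046 of S100a11.

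The promoter window of S100a11, chr3:93520246-93520545 (GRCm38.p6, plus strand), is shown because it held the most motif matches among the members, in capitals: a pair of AP-1 matches (TGAGTCA), at -136 and -38 from the start, 3 GC boxes and 1 PU.1 core.
S100a11: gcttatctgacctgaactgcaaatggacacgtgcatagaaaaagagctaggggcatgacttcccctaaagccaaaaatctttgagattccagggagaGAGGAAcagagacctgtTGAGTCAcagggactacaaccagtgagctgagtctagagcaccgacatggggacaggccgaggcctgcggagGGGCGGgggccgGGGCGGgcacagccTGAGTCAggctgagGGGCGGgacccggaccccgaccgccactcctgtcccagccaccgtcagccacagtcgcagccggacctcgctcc
A match is a description of the letters and not a site of binding.

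S100a6, or calcyclin, was high in astrocyte-like and mural-like cells of some PDOXs. Astrocyte-like cells had 213 CPM in T16, a median of 467 CPM and 2043 CPM in T192. Mural-like cells had 0 CPM in T192, a median of 249.5 CPM and 1180 CPM in P13. OPC-like cells had 57.4 to 313 CPM, myeloid-like cells 26.9 to 293 CPM and endothelial-like cells 0 to 202 CPM. Endothelial-like minus astrocyte-like cells gave -3.83 ± 0.50 (SE, edgeR, adjusted p = 9.5e-09) and astrocyte-like minus OPC-like cells 2.35 ± 0.51 (adjusted p = 0.00037). Myeloid-like minus mural-like cells gave -1.79 ± 0.52 (adjusted p = 0.0058), a call that ended without P13 (-1.03, adjusted p = 0.18), without T233, P3 or T16, by DESeq2 and in 5 other alternatives. In T192, the astrocyte-like cells with the highest S100a6 also held 8770 CPM of the 13 myeloid markers, where the median PDOX held 2162 CPM and Nu-NB 586.5 CPM. The part of these markers in the S100a6 level was not tested. Their S100a6 UMIs were spread over 58 of 126 cells, with 13.9% in the highest cell. At equal depth, 28.8% (23.9 to 34.2) of mural-like, 13.5% (11.7 to 15.3) of astrocyte-like and 2.01% (1.33 to 2.91) of endothelial-like cells held S100a6. The mural-like share rests on P13, where 81 of 198 cells held it (40.9%), against 15.8% in T16, 3.85% in P8 and 0 of 11 cells in T192. The mural-like cells of P13 had a median of 3076 UMIs before thinning, against 383 to 556 in the other PDOXs, and the highest myeloid marker sum (11590 CPM), whose part in the share was not tested. Without P13, the mural-like share was 7.89% (3.67 to 14.5) of 114 cells.

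S100a10, which forms a complex with annexin A2 at the plasma membrane, was the member least seen in OPC-like cells. Only 2 UMIs were found in 827 OPC-like cells of the PDOXs, and 0 of 585 cells at 500 UMIs. At this depth 3 counts of that total, or 0.513% of cells with a UMI, were taken as the limit that a count of 0 allows, by counting error only. Endothelial-like cells had 24.3 CPM in T16, a median of 55.5 CPM and 187.5 CPM in P13. Astrocyte-like cells had 13.9 to 90.3 CPM, myeloid-like cells 8.97 to 168 CPM and mural-like cells 0 to 449 CPM. Endothelial-like minus OPC-like cells differed by 4.70 ± 0.99 (SE, edgeR, adjusted p = 0.00012), a fitted value that depends on the prior count because 4 of 6 OPC-like sums were 0. Myeloid-like, astrocyte-like and mural-like cells were also higher than OPC-like cells, by 4.04, 4.23 and 4.34, and these 3 calls were lost without P8 (adjusted p = 0.029 to 0.092). They were also lost with at least 500 genes per cell (2.45, 3.02 and 2.59, edgeR, adjusted p = 0.017, 0.012 and 0.074), and that of mural-like cells at a clustering resolution of 2 (adjusted p = 0.0455). No pair of the other 4 classes passed the threshold. With doublets kept, the difference of myeloid-like minus endothelial-like cells was called (-1.32, edgeR, adjusted p = 0.0033).

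S100a4, a member linked to cell motility that is also called fibroblast-specific protein, was at 0 in all 3 PDOX sums of fibroblast-like cells (107 cells), where 3 UMIs would be 60.5 to 86.9 CPM. At equal depth 0 of 90 of these cells held it, which allows a share of up to 3.33% and so shows no lower level than in the other classes. It was seen in astrocyte-like cells at 0 CPM in T16, a median of 64.0 CPM and 261 CPM in T192, and in myeloid-like cells at 3.82 CPM in P3, a median of 16.04 CPM and 144 CPM in T101. Endothelial-like cells reached 6.84 CPM. Endothelial-like minus astrocyte-like cells gave -5.10 ± 0.79 (SE, edgeR, adjusted p = 4.0e-07) and myeloid-like minus endothelial-like cells 3.82 ± 0.77 (adjusted p = 4.4e-05). In mural-like cells all 81 UMIs came from P13, in 33 of its 198 cells, and the other 5 PDOXs were at 0, where 3 UMIs would be 43.2 to 397 CPM. The mural-like cells of P13 also held the highest sum of the 13 myeloid markers among the PDOXs, 11590 CPM, where the lowest was 530 CPM. The part of these transcripts in the S100a4 level was not tested. Endothelial-like minus mural-like cells gave -3.72 ± 0.88 (edgeR, adjusted p = 0.0009), which therefore rests on P13, was not called by DESeq2 (adjusted p = 0.072) and turned to 3.08 (adjusted p = 0.68) at a clustering resolution of 2.

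Over all pairs of the 5 classes, 47 of 80 tests of members passed the threshold, with 8 members tested. S100a8 did not pass the filter on low counts, and S100a9 was not in the table because of T233. The number of the 8 members called was 5 for myeloid-like against endothelial-like cells (32.5% of all genes were called in that pair), 5 for myeloid-like against astrocyte-like (40.1%), 2 for myeloid-like against mural-like (22.5%) and 5 for myeloid-like against OPC-like cells (36.7%). It was 5 for endothelial-like against astrocyte-like cells (37.3%), 6 for endothelial-like against mural-like (19.3%) and 6 for endothelial-like against OPC-like cells (27.6%). It was 5 for astrocyte-like against mural-like (24.3%), 2 for astrocyte-like against OPC-like (17.6%) and 6 for mural-like against OPC-like cells (19.3%). The share of members was thus near that of all genes between astrocyte-like and OPC-like and between myeloid-like and mural-like cells.

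**Figure D2:**
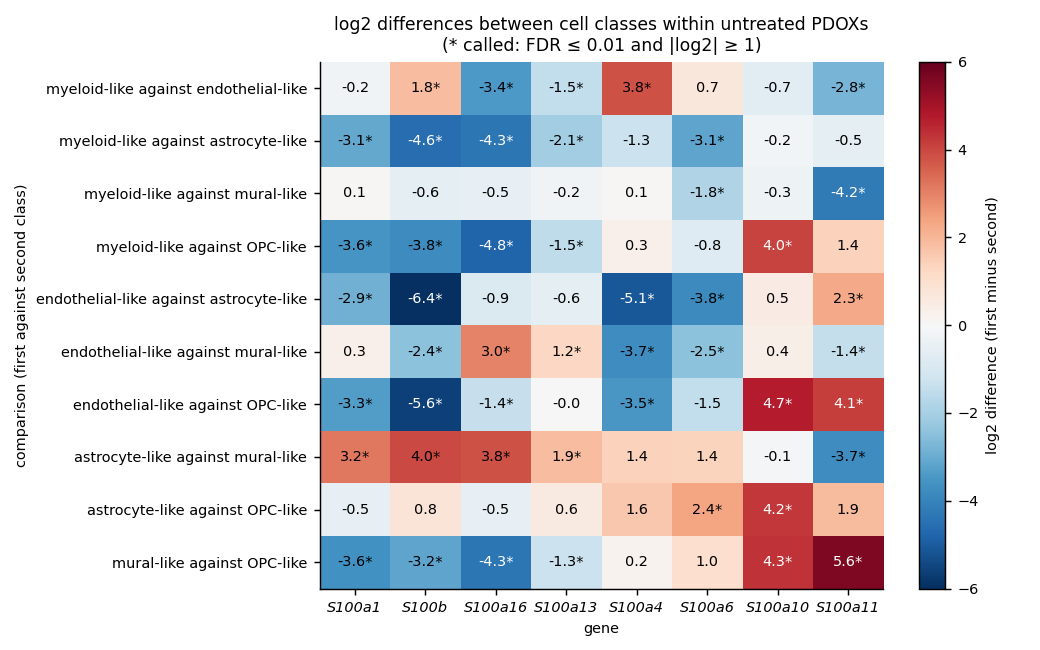
Fitted log2 differences of 8 S100 genes (columns) in the 10 pairs of cell classes (lines), first class minus second class, over the untreated PDOXs. Red is higher and blue lower in the first class, and a star marks a call at an adjusted p of at most 0.01 and a log2 difference of at least 1. S100a1, S100b and S100a16 are lower in vessel and myeloid classes than in OPC-like cells, and S100a10 is higher in all 4 classes than in OPC-like cells.

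Transcripts of proteins known to bind S100 proteins were compared between the same classes. Of 9 partners, 8 were tested, and 6 rose and 0 fell in endothelial-like against OPC-like cells, with a median log2 difference of 4.06 against 0.095 for all genes, of which 27.6% were called in either direction. Among them were Ahnak, a scaffold bound by S100a10 with annexin A2, at 7.32 ± 0.69, Anxa2, which encodes annexin A2, at 5.46 ± 0.57, and Anxa1, annexin A1, at 5.27 ± 0.95 (SE, edgeR, adjusted p = 3.0e-12, 5.0e-11 and 1.1e-05). In mural-like against OPC-like cells, 6 of the 8 rose and 0 fell (median 4.14 against -0.044 for all genes, of which 19.3% were called), with Ahnak at 5.66, Anxa1 at 5.63 and Anxa5, annexin A5, at 5.07. Partners also rose over OPC-like cells outside the vessel classes, 5 of the 8 in myeloid-like and 3 in astrocyte-like cells with 0 falling in either, where 36.7% and 17.6% of all genes were called. Ahnak was at 4.30 and 5.39 there, and Anxa5 at 4.52 and 5.19. In the other pairs, 0 to 4 of the 8 rose and 0 to 4 fell. In myeloid-like against mural-like cells, 0 of the 8 rose and 4 fell, where 22.5% of all genes were called, with Anxa1 at -2.35, Anxa6, annexin A6, at -1.56 and Anxa2 at -1.53 (edgeR, adjusted p = 0.00016, 0.0073 and 0.00058). Of 7 receptors, 4 were tested. Bsg, or basigin, which binds S100a9, was higher in endothelial-like than in mural-like cells by 4.38 ± 0.33 (SE, edgeR, adjusted p = 4.2e-14), and Cd36, a scavenger receptor, was higher in myeloid-like than in endothelial-like cells by 4.396 ± 0.41 (adjusted p = 5.8e-13). Alcam, an adhesion molecule, was lower in endothelial-like than in astrocyte-like cells (-3.36 ± 0.34, adjusted p = 7.6e-12). Of 12 other EF-hand genes, 10 were tested, and between 0 and 4 were called higher and 0 or 1 lower in each pair, where 17.6 to 40.1% of all genes were called in either direction. None of the 3 lists held a gene called between PDOXs and Nu-NB in any class.

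Within the myeloid-like cells, S100a4, S100a6, S100a10 and S100a11 were higher in monocyte-derived-like than in microglia-like cells. The monocyte-derived-like cluster was led by H2-Aa, Igkc, Ly6c2 and Ccr2. At 500 UMIs 18.8% of its cells held 2 of its markers, below the 30% asked of the main classes, and with doublets kept no such cluster was named. It held 39.5% of the myeloid-like cells of T101 and 14.7% of those of P13, against 0 to 3.43% in the other PDOXs and 3.18% in Nu-NB. S100a4 was at 179.5 CPM in Nu-NB, 633 CPM in P8, 421 CPM in T101, 197 CPM in T192 and 633 CPM in P13 in the monocyte-derived-like cells, where microglia-like cells of the same samples had 0 to 14.7 CPM. S100a6 was at 987, 633, 743, 197 and 705 CPM in the same order, against 0 to 52.5 CPM. The S100a4 value of Nu-NB rests on 2 UMIs and lies below the 269 CPM of 3 UMIs, and the microglia-like value of T101 is 0 from 50 cells for both genes, where 3 UMIs would be 111 CPM. In these 5 samples, the difference of monocyte-derived-like minus microglia-like cells was 4.88 ± 0.46 for S100a4, 4.21 ± 0.52 for S100a11, 3.98 ± 0.49 for S100a6 and 3.68 ± 0.44 for S100a10 (SE, edgeR's quasi-likelihood test with the sample as a block, adjusted p = 9.4e-07 to 1.5e-05). In this comparison 12.3% of 1559 genes were called in either direction. Only these 4 members passed the filter on low counts, all with high levels in the monocyte-derived-like sums, so nothing is read from the number of them called. Without P13, S100a6 alone passed the filter on low counts and was called, so this alternative shows nothing for the other members. In the monocyte-derived-like sums S100a8 was at 24237 CPM in Nu-NB, 5191 CPM in P8 and 1083 CPM in P13, mostly from 5 cells of 437 to 1276 UMIs with neutrophil markers, 3 of them among the 22 cells of Nu-NB. The part of these cells in the other members' levels was not tested. The sums of Nu-NB and P8 rest on 22 and 19 cells, and this comparison was added after the data had been seen. Over whole myeloid-like sums, S100a4, S100a6, S100a10 and S100a11 were highest in T101, the PDOX with the largest monocyte-derived-like share.

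Among endothelial-like cells, a cluster led by Ctla2a, Cd93 and Kdr, which encodes a VEGF receptor, was compared with the cluster led by Cxcl12, Ly6c1 and the transporter gene Abcb1a in 6 PDOXs. S100a1 was lower in the former (-1.39 ± 0.33, SE, edgeR, adjusted p = 0.0045). It had 22.9 CPM in P13, 31.2 in T101, 33.5 in P8, 50.9 in T16, 69.1 in P3 and 156 CPM in T192, against 97.8, 122.5, 201, 117.5, 137 and 132 CPM in the latter, so that T192 went the other way. The lower values of P8 and T101 rest on 1 UMI each. S100a1 was 1 of the 4 members tested, where 9.21% of all genes were called, and it was not called without P8, T16 or P13 (adjusted p = 0.011 to 0.040). S100a11, S100a13 and S100a16 were not called. Among astrocyte-like cells, S100a6 was higher in the cluster led by Aldoc than in that led by Agt, with 84.1 against 6.12 CPM in Nu-NB, 380 against 74.0 in P8, 1277 against 198 in T101, 2227 against 621 in T192, 237 against 149.9 in T16 and 291 against 112 CPM in P13. The lower values of Nu-NB and T101 rest on 1 UMI each. The direction held in 6 of 6 samples, and the difference was 1.82 ± 0.23 (SE, edgeR, adjusted p = 1.4e-13). It was the 1 call among 5 members, where 4.52% of all genes were called. Both comparisons were added after the data had been seen.

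S100a8 and S100a9 were found in few cells and in large numbers per cell. Of 1018 S100a8 UMIs, 877 (86.15%) were in 10 cells with at least 10 UMIs each, and all 10 cells also held S100a9. Nu-NB had 4 of these cells, P8 had 4, and P13 and T192 had 1 each. In 6 cells of 437 to 1276 UMIs, the pair made up 11.9 to 27.7% of all UMIs. These cells held 2 to 7 neutrophil marker genes and no UMI of the 7 microglia markers. One of them, from Nu-NB, held 152 S100a8, 193 S100a9 and 199 neutrophil marker UMIs, of Ngp, Camp, Ltf and Lcn2, which encode granule proteins. The other 4 cells had 18131 to 31653 UMIs and held both neutrophil markers (9 to 200 UMIs) and microglia markers (42 to 113 UMIs). Only 2 of the 12 neutrophil markers, Csf3r and Lcn2, are listed in every file, and no cluster was named neutrophil-like.

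**Figure D3:**
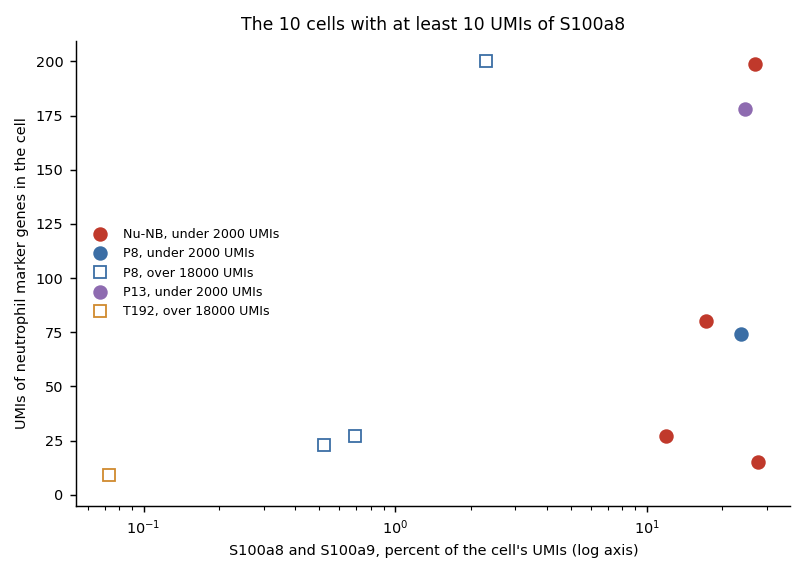
The 10 cells with at least 10 UMIs of S100a8. The horizontal log axis is the percent of a cell's UMIs that are S100a8 or S100a9, and the vertical axis is the number of UMIs of neutrophil marker genes in the cell. Filled circles are the 6 cells of 437 to 1276 UMIs, with the pair at 11.9 to 27.7% of UMIs, and open squares are the 4 cells of 18131 to 31653 UMIs, with the pair at no more than 2.29%.

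Summed over myeloid-like cells, S100a8 was 682 CPM in Nu-NB and 349 CPM in P8, 147 CPM in P13, 38.8 CPM in T16, 8.02 CPM in T101, 6.17 CPM in T192, 0.996 CPM in T233 and 0 CPM in P3. S100a9 was 737 CPM in Nu-NB, 284 CPM in P8, 140 CPM in P13 and 0 to 19.4 CPM in the other 4 PDOXs that list it. Both genes were thus higher in the brain than in every PDOX, but 1 cell held 55.9% of the S100a8 of Nu-NB, and without it the level was 302 CPM. In P8, 1 cell held 42.1%, and the level without it was 204.5 CPM. For S100a9, 1 cell held 65.65% of the UMIs of Nu-NB, and the level without it was 253.8 CPM, below the 284 CPM of P8 (132.7 CPM without the highest cell of P8). The difference of PDOXs minus Nu-NB was -2.80 ± 1.44 for S100a8 (SE, edgeR, adjusted p = 0.30) and -2.99 ± 1.38 for S100a9 (adjusted p = 0.27, in a fit without T233), so that neither passed the threshold. At 500 UMIs, 0.681% (0.381 to 1.12) of myeloid-like cells of PDOXs held S100a8, against 0.276% (0.0753 to 0.705) of astrocyte-like cells, a class not known to express it, and the intervals overlap. P8 held 10 of the 15 myeloid-like cells with S100a8 and all 4 of the astrocyte-like ones. Without P8 the shares were 0.275% (0.0895 to 0.642) of 1815 myeloid-like cells and 0 of 983 astrocyte-like cells, where 3 counts would be 0.305%.

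The genes lie 22596 bases apart on chromosome 3. Their promoter windows are shown because they were the members found in the same cells, with motif matches in capitals (S100a8, chr3:90668821-90669120, plus strand, and S100a9, chr3:90695672-90695971, minus strand, both GRCm38.p6).
S100a8: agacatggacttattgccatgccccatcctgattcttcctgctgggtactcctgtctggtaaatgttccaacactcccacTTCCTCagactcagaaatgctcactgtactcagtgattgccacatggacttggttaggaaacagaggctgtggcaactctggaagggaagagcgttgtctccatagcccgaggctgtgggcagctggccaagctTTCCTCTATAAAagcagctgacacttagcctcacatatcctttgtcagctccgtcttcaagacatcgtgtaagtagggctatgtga
S100a9: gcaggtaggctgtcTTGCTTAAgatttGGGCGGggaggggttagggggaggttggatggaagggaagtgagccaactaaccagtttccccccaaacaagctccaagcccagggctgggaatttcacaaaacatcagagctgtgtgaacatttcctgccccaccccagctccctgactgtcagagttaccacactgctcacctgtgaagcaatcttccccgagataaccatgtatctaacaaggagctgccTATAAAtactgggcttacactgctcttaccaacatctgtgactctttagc
S100a8 held a TATA box at -30 and, on the other strand, a pair of PU.1 cores. S100a9 held a TATA box that begins at the annotated start, a CCAAT-enhancer motif at -236 and a GC box at -223. A TATA box was otherwise seen in the window of S100a4 only, among the 9 members with a window.

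**Figure D4:**
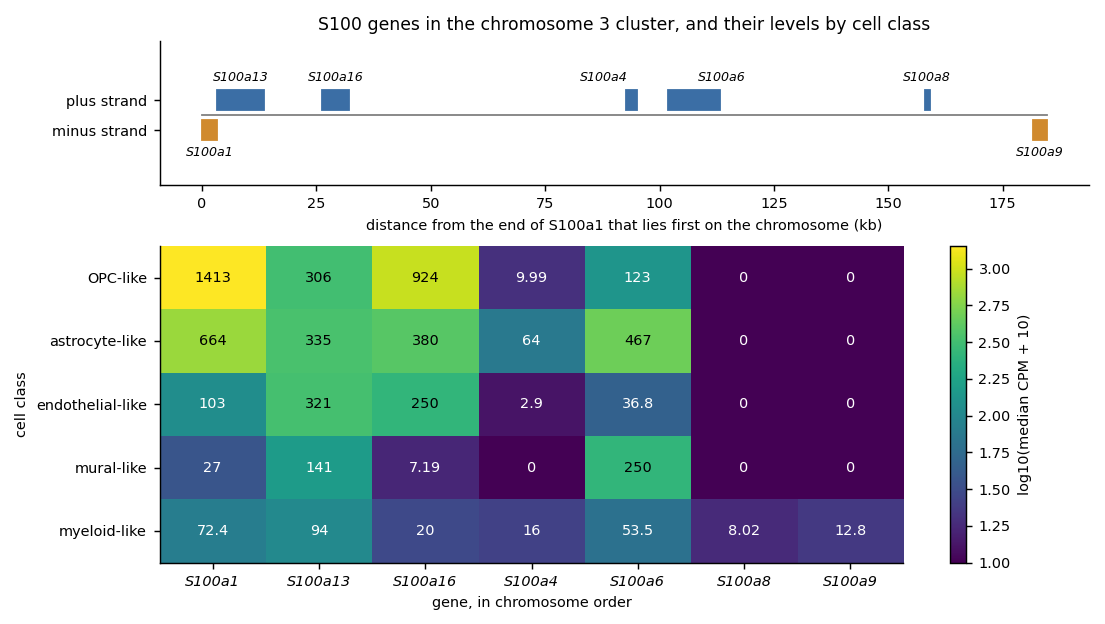
Top, the 7 S100 genes that lie within 184.7 kb of chromosome 3, by distance in kb, with plus-strand genes above the line and minus-strand genes below. Bottom, the median CPM of the untreated PDOXs for the same genes in chromosome order in 5 cell classes, printed in each field and shaded by log10(CPM + 10). Some neighboring genes differ in their classes. S100a16 has its highest median in OPC-like cells (924 CPM) and the next gene, S100a4, in astrocyte-like cells (64.0 CPM). Others share a class, as S100a4 and S100a6 in astrocyte-like cells and S100a8 and S100a9 in myeloid-like cells.

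The brain without tumor served as the control for the PDOXs. As there was 1 brain, brains were assumed to vary as much as PDOXs do, and no member was called in any class. Members at 0 or 1 UMI in Nu-NB passed the filter on low counts through the PDOXs, so nothing is read from how many were tested or from their direction. In astrocyte-like cells (849 cells in Nu-NB), S100a6 was 62.1 CPM in Nu-NB and at least 213 CPM in each of the 6 PDOXs, with P8, which was sorted as Nu-NB was, at 280 CPM. The difference was 3.46 ± 1.09 (SE, edgeR, adjusted p = 0.41), and it was called without the filter on low counts (3.36, adjusted p = 0.0071). S100a10 was 1.72 CPM in Nu-NB, from 1 UMI, and 13.9 to 90.3 CPM in the PDOXs (4.19 ± 1.25, adjusted p = 0.41). S100a13 was 105 CPM in Nu-NB and 199 to 542 CPM in the PDOXs, and S100a1 was 231 CPM against 361 to 812 CPM. S100b was 524 CPM in Nu-NB, within the PDOX range (0.42 ± 0.56, adjusted p = 0.81), and 21.99% (18.3 to 26.0) of the Nu-NB cells held it at equal depth. None of 8 members tested was called, where 0% of 5850 genes were called, and the median log2 difference of all genes was 0.028. An unadjusted p under 0.05 was reached by 626 of all genes, and DESeq2 called 1 gene, which is not a member. The 13 myeloid markers summed to 586.5 CPM in the astrocyte-like cells of Nu-NB and to 745 to 8770 CPM in those of the PDOXs, and their part in these values was not tested.

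In myeloid-like cells, S100a1 was 12.5 CPM in Nu-NB and 49.0 to 96.9 CPM in the 7 PDOXs, and S100a13 was 22.6 CPM against 43.6 to 145 CPM. Neither overlapped, and P8 was at 73.1 and 60.1 CPM. The differences were 2.78 ± 0.61 for S100a1 and 2.24 ± 0.72 for S100a13 (SE, edgeR, adjusted p = 0.088 and 0.13). S100a16 was 12.5 CPM in Nu-NB and 3.82 to 29.9 CPM in the PDOXs. No member was called, where 0.0114% of 8777 genes, or 1 gene, were called. DESeq2 called 210 genes and none of the members, and 1747 of all genes reached an unadjusted p under 0.05, with a median of 0.11 over all genes. The 5 OPC markers listed in every file summed to 17.6 CPM in Nu-NB and to 76.5 to 354 CPM in the PDOXs, and the 11 astrocyte markers to 1021 CPM against 149 to 1323 CPM. The part of these transcripts in the S100a1 level was not tested.

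In endothelial-like cells, S100a11, S100a13 and S100a16 were each 61.2 CPM in Nu-NB, from 1 UMI each in 34 cells, and at least 122, 201 and 210 CPM in the 7 PDOXs. The differences were 3.004 ± 1.09, 3.13 ± 0.93 and 2.89 ± 0.85 (SE, edgeR, adjusted p = 0.33, 0.27 and 0.27), beside a median of 0.74 over all genes. Of 6372 genes 0% were called, 846 of all genes reached an unadjusted p under 0.05, and DESeq2 called 2, none of them a member. In mural-like cells, Nu-NB had 11 cells and 0 UMIs of every member but S100b, with 1 UMI. S100a11 and S100a6 were tested and not called, where 0% of 417 genes were called. DESeq2 called 0 genes there, and 73 of all genes reached an unadjusted p under 0.05. FACS or MACS and tumor or brain cannot be told apart for the PDOXs other than P8.

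**Figure D5:**
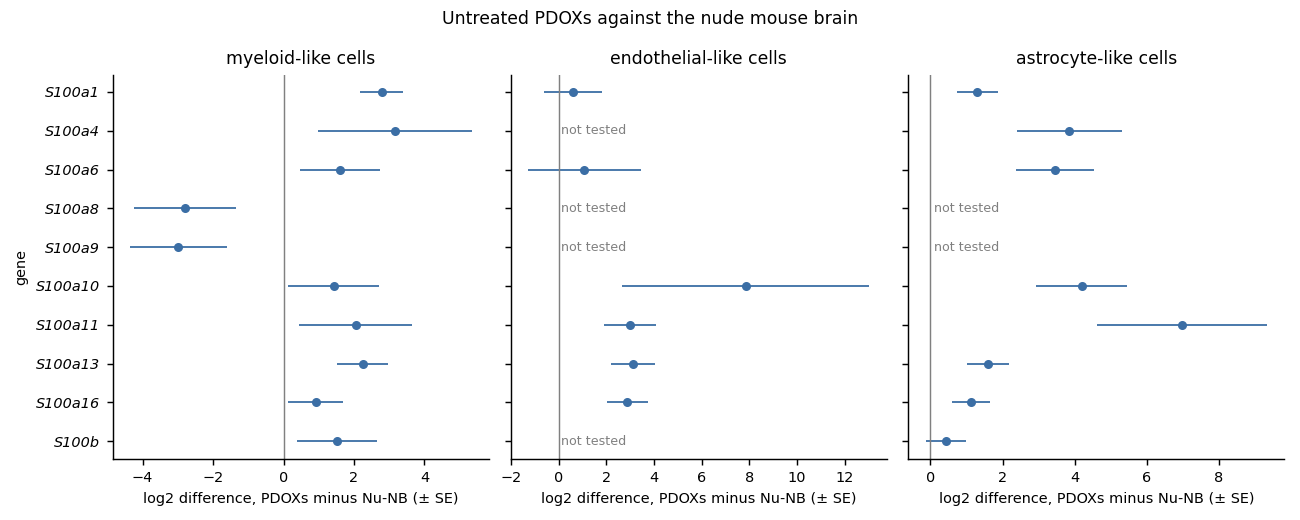
Log2 difference of untreated PDOXs minus Nu-NB with its standard error for each S100 gene in myeloid-like, endothelial-like and astrocyte-like cells. Genes that did not pass the filter on low counts are named as not tested, and S100a9 comes from a fit without T233. None of the differences was called, and fitted values of genes at 0 UMIs in Nu-NB (S100a10 in endothelial-like and S100a11 in astrocyte-like cells) depend on the prior count.

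P3TMZ and P3 are 1 sample each, so their ratios carry counting intervals and no test. In myeloid-like cells, S100a6 had 6 UMIs in 322 cells of P3TMZ and 17 UMIs in 223 cells of P3, a ratio of 0.147 (0.0475 to 0.391). The ratio was 0.396 with doublets kept. S100a10 gave 0.232 (0.0610 to 0.770), from 5 and 9 UMIs, and S100a13 gave 0.582 (0.377 to 0.907), from 53 and 38 UMIs. In endothelial-like cells, S100a16 gave 1.60 (1.04 to 2.47), whereas S100a11 and S100a13 gave 1.05 (0.709 to 1.54) and 1.02 (0.703 to 1.46). Of the members with at least 5 UMIs over both samples, the interval left out 1 for 3 of 6 members of myeloid-like cells, for 1 of 6 members of endothelial-like cells and for 0 of 3 members of mural-like cells. It left out 1 for 11.6% of 9073 genes, 10.6% of 7382 genes and 6.96% of 920 genes in the same classes. Treatment and the animal cannot be told apart.

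Genes outside the family were ranked by the correlation of log2(CPM + 10) with each member over 60 sums of class and sample (54 for S100a9), which share libraries and class differences, so the values are descriptions. The closest of 9859 genes were Tm4sf1 for S100a11 (r = 0.88), Chpt1 for S100a1 (0.82), Asrgl1 for S100b (0.805), Rgcc for S100a16 (0.77), Anxa1 for S100a10 (0.77), Psmd13 for S100a13 (0.75), Vim, which encodes vimentin, for S100a6 (0.74), Arhgap9 for S100a9 (0.655), Cd44, which encodes a receptor of hyaluronan, for S100a4 (0.605) and Mlph for S100a8 (0.58). Among the members themselves, S100a1 and S100a16 gave r = 0.84.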

How the data were processed

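Drop-seq libraries of 9 samples were analysed. Per the labels, the authors used bcl2fastq 2.0 and STAR with GRCm38 and mm10, and they deposited raw UMI counts per gene and cell barcode for mouse cells, without normalization. Whether counting used strand is not given in the sources used here. Files held 1294068 to 8410580 UMIs, so shares of low genes are imprecise, and 12580 symbols were listed in every file. The members and gene lists were chosen with earlier results of these data known.

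Cells needed 200 genes and no more than 30% of UMIs from mitochondrial genes, and the top 5% by scrublet score were removed per sample. Clusters came from scanpy 1.11.5 with leidenalg 0.10.2, under Python 3.11.15 (2000 variable genes, 30 components, 20 neighbors, resolution 1), without S100 and mitochondrial genes. A cluster took a name where at least 3 markers were detected and 30% of its cells held 2 of them (25% for microglia), a rule revised after clusters had been seen. The monocyte-derived-like comparison, both cluster comparisons, the S100a9 fit and shares without each PDOX were also added after seeing the data. Myeloid subclusters took the name of the list with the most markers, at least 2, among their 10 leading genes. Of the monocyte-derived-like cells at 500 UMIs, 18.8% held 2 of its markers. UMIs were summed per class and sample and compared by edgeR 4.0.16 (TMM, filterByExpr, quasi-likelihood, Benjamini-Hochberg) and by DESeq2 1.42.0 on R 4.3.3. CPM were taken over genes listed in every file. Cells with at least 500 UMIs were thinned to 500 UMIs for shares, and cells with fewer were left out. The test was tested on simulated data with genes changed 2-fold, 4-fold and 8-fold. For PDOX against Nu-NB in myeloid-like cells (8777 genes), 1.32%, 6.56% and 33.3% of these were recovered, so most were missed. For endothelial-like against astrocyte-like cells (3988 genes), 27.3%, 96.9% and 100% were recovered. Both had 0 false calls. All 10 members are named whatever their values, the 3 most correlated genes were ranked for each, and at most 3 called genes per direction are named from the lists of receptors, partners and other EF-hand genes. Alternatives were other tools, scalings, filters, doublet settings, resolutions and depths, and leaving out each PDOX.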

Additional observations from a re-analysis of the deposited data

Results flagged for a closer look

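Of 51 groups of 4 to 10 samples with at least 10 UMIs, 10 had 1 PDOX far from the others by their values. The rule has a nominal rate of about 1 in 20 by chance, which need not hold for sparse counts. Where all other PDOXs hold no UMI of a gene, the PDOX with UMIs is flagged whatever its level. Several flagged groups also come from the same library, T101 or P13. No excess over chance is therefore read from the number flagged. In myeloid-like cells, T101 stood apart for S100a6 (293 CPM), S100a10 (168 CPM) and S100a11 (156 CPM). These UMIs were spread over 32 to 45 cells each, and 39.5% of the myeloid-like cells of T101 were monocyte-derived-like. P8 stood apart for S100a8 in the same class (349 CPM), and a single cell of 18131 UMIs held 42.1% of it.

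In mural-like cells, P13 was the one PDOX above 0 for S100a4 (93.0 CPM, in 33 of 198 cells), S100a8 (11.5 CPM, from 10 UMIs of which 8 were in 1 cell) and S100a9 (19.5 CPM, with 15 of 17 UMIs in 1 cell). In the other PDOXs 3 UMIs would be 43.2 to 397 CPM, above the S100a8 and S100a9 values of P13. P13 had a median of 3076 UMIs per mural-like cell and the other PDOXs 383 to 556. P3 stood apart for S100a10 (449 CPM), from 6 UMIs in 2 of 21 cells. S100a8 in OPC-like cells of T16 (53.3 CPM) came from 1 cell. S100a11 in astrocyte-like cells of T192 (190 CPM) came from 14 of 126 cells, in a sample whose astrocyte-like cells also held the most myeloid marker UMIs. The part of these other cells in the levels was not tested.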

How the results depend on the processing

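Among log2 differences of single members under alternatives, 1702 kept their direction and their side of the threshold, 40 lost their call, 15 gained one, and 1 reversed: at resolution 2, S100a4 in endothelial-like minus mural-like cells was 3.08 (adjusted p = 0.68, edgeR) instead of -3.72. Without a filter on low counts, 1 member, S100a6, was called for PDOX against Nu-NB in astrocyte-like cells (0 with it), 2 members in the endothelial clusters (1 with it) and 4 in the astrocyte clusters (1 with it). With at least 500 genes per cell, 1 member was called between monocyte-derived-like and microglia-like cells, since only S100a11 then passed the filter on low counts, and 1 ratio of P3TMZ to P3 left out 1 (4 before). The cause of the other changes was not tested. Leaving out 1 PDOX in turn gave 39 to 47 calls between classes, 1 to 5 for monocyte-derived-like against microglia-like cells, 0 to 1 in the endothelial clusters, 1 to 2 in the astrocyte clusters and 0 to 0 for PDOX against Nu-NB. It left 6 to 10 members with their highest share of cells in the same class, with 6 without P13, an alternative chosen after seeing the data. Settings without a sample block ended 3 calls between classes. Nu-NB had too few endothelial-like and mural-like cells for a value with at least 500 genes per cell, and without doublet removal no monocyte-derived-like cluster was named. For PDOX against Nu-NB, no paired analysis was possible because PDOX replicate numbers name different tumor models and pair with no brain.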

Other observations

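The unnamed cells carried 40.4% of all S100a6 UMIs and 46.0% of S100a10. Most were in a cluster led by Hist1h4c, Tubb3, Gap43 and several predicted genes, found in 6 untreated PDOXs and P3TMZ and in no sum of Nu-NB or P8. Nu-NB and P8 are the samples sorted by FACS, so the presence of the cluster and the use of MACS cannot be told apart. Whether the cluster holds mouse cells only was not tested. Its S100a6 level was 452 CPM in T101, 602 in T16, 913 in T233, 1295 in P13, 2264 in T192 and 4245 CPM in P3, and 6652 CPM in P3TMZ. S100a10 ranged from 60.3 CPM in T101 to 2074 CPM in P3. S100a11 was at 0 or 1 UMI in each of its 7 sums.

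In fibroblast-like cells of P8, T16 and P13, S100a6 was at 322 to 436 CPM and S100b at 125 to 348 CPM.

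Other symbols of the family were rare. S100a3 had 66 UMIs in 7 files, S100a7a 15, S100a5 10, S100a14 4 and S100a2 1 UMI.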
